A study of Mus musculus with 13 samples.

Results

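The mitochondrial genome carries 6 genes for proteins of respiratory complexes III, IV and V, and all 6 were followed across the treatment groups. They were taken by symbol as listed rows of the normalized count table, which made 6 of its 21868 genes, so the rule itself uses no threshold on a measured value, although the genes were picked with earlier results of these data known. mt-Cytb belongs to complex III, mt-Co1, mt-Co2 and mt-Co3 to complex IV, and mt-Atp6 and mt-Atp8 to complex V. All 6 passed the filter of a mean normalized count of at least 10 over the 13 mice, as did 12303 genes in all.

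RNA was sequenced from the gastrocnemius, a calf muscle, of 13 obese male C57BL/6N mice (C57BL/6 in the labels, with the substrain from the study's description of the sequencing), 1 library per mouse and 1 sequencing batch in the labels. Every mouse was 7 weeks old at the start and first spent 1 week on chow to acclimatize. Each then ate a diet with 60 kcal% fat for 15 to 17 weeks, and was returned to chow for 3 weeks of treatment. No group thus stayed on the high-fat diet, and no lean group was sequenced. Vehicle-treated mice (n = 5, mice 1 to 5, labelled Vehicle+placebo) received phosphate-buffered saline. Semaglutide-treated mice (n = 5, mice 13 to 17, labelled Semaglutide+placebo) received semaglutide, a GLP-1 receptor agonist, at 30 nM/kg per day intraperitoneally, and semaglutide + ketone ester-treated mice (n = 3, mice 19, 21 and 22) received the same dose and drank water holding a ketone ester at 0.114 g/mL.

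Mitochondrial DNA is transcribed into long RNAs that span many genes, and the messenger RNAs are released mainly where transfer RNAs between them are cut out. mt-Atp8 and mt-Atp6 stay together on a single messenger RNA with overlapping reading frames. The encoded proteins sit in the inner membrane and assemble with subunits made from nuclear genes, so that each complex depends on both genomes. Oxidative muscle fibers are rich in these transcripts. In the build used for alignment, mm10 (GRCm38), the 6 genes lie on the same strand of the mitochondrial chromosome, and the annotation gives each as a single exon. mt-Co1 spans chrM:5328-6872, mt-Co2 chrM:7013-7696, mt-Atp8 chrM:7766-7969, mt-Atp6 chrM:7927-8607, mt-Co3 chrM:8607-9390 and mt-Cytb chrM:14145-15288. Between the end of mt-Co1 and the start of mt-Co2 there are 140 bases, and between mt-Co2 and mt-Atp8 there are 69. Between the end of mt-Co3 and the start of mt-Cytb there are 4754. The 2 complex V genes share 43 bases, and mt-Atp6 shares its last base with mt-Co3. The overlap is shown because a fragment from it cannot be assigned to either complex V gene alone. Capitals mark the shared bases, which begin with the start codon of mt-Atp6 and end with the stop codon of mt-Atp8.
mt-Atp8 end and mt-Atp6 start, chrM:7909-7987, plus strand: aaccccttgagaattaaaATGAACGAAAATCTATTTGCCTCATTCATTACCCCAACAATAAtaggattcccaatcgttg

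Copies of mitochondrial DNA in nuclear chromosomes bear on how reads of these genes can be placed. Each gene was cut into all windows of 59 bases, the read length, and each window was looked for on both strands of all other annotated transcripts (GENCODE, GRCm38). No window of mt-Cytb or mt-Atp8 had an exact match. In mt-Co1, 46.9% of windows did, in mt-Atp6 99.5%, in mt-Co3 99.9% and in mt-Co2 100%. The matches lay in 6 annotated pseudogenes on chromosomes 1 and 2, and none of the 6 is a row of the table. Gm28661, at chr1:24614885-24615565 on the minus strand, was identical to mt-Co2 over 681 of 681 bases. Gm10925 was identical to mt-Atp6 over 678 of 678 bases and Gm28437 to mt-Co3 over 783 of 783. Gm29216 matched the end of mt-Co1, from base 1054 to base 1545, at 486 of 492 bases. Its differences were T1056A, C1057T, A1059G, A1060G, C1062A and A1066T, counted from the first base of mt-Co1 with the mt-Co1 base first. The starts of Gm28661 and Gm10925 lie 914 bases apart, as do those of mt-Co2 and mt-Atp6, with no annotated transcript at the place of mt-Atp8, and the sequence between them was not searched. The windows below are shown as a pair that a read can separate and a pair that it cannot, with capitals at the bases that differ.
mt-Co1, chrM:6381-6439, plus strand: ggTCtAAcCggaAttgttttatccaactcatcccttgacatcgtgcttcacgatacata
Gm29216, bases 1 to 59, chromosome 1, minus strand: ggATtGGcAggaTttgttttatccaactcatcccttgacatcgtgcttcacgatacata
mt-Co2, chrM:7324-7382, plus strand: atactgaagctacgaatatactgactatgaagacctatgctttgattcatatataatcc
Gm28661, bases 312 to 370, chromosome 1, minus strand: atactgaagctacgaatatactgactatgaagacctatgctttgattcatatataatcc

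Values are normalized counts as deposited, that is, reads per gene divided by a factor per mouse. Between 15319471 and 23498162 reads were counted on genes per mouse. Skeletal muscle fiber markers were abundant in every mouse, with summed normalized counts of 7 genes (Acta1, Ckm, Tnnt3, Mylpf, Myh4, Myh1 and Myh2) of 2365090 to 2851690 in vehicle-treated, 1451640 to 2597920 in semaglutide-treated and 2999160 to 3593560 under semaglutide + ketone ester. Semaglutide mouse 13 had the lowest weight of the 13 mice, 0.23 against 0.39 to 1.61 for the others, when limma weighted each mouse by its own spread. The main limma fits were repeated with each mouse left out in turn, mouse 13 among them. The mice were the replicates, and differences were tested with limma on log2(normalized count + 1) over all 12303 genes with the 3 groups in 1 model. Adjusted p-values are by Benjamini-Hochberg across these genes, and the threshold was 0.05. A gene is said below to have fallen or risen only where it passed this threshold.

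Together the 6 genes took 10.2% ± 0.69 (SD, n = 5) of all counted reads in vehicle-treated mice, with a range of 9.43% to 11.0%. In semaglutide-treated mice the share was 6.77% ± 0.48 (SD, n = 5), between 6.18% and 7.48%, and in semaglutide + ketone ester-treated mice 9.05% ± 0.51 (SD, n = 3), between 8.73% and 9.64%. The semaglutide-treated mice lay apart from both other groups, which overlapped each other. In bulk muscle, fewer mitochondria-rich fibers, fewer mitochondria per fiber and less RNA per mitochondrion cannot be told apart.

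Levels per gene length differed widely among the 6. In vehicle-treated mice, mt-Co1 was highest at 716980 normalized counts per kb, followed by mt-Cytb at 391466, mt-Atp8 at 328026, mt-Atp6 at 263843, mt-Co3 at 183380 and mt-Co2 at 43884. In that group no neighbors in this order overlapped between mice. The order was the same under both other treatments, but in semaglutide-treated mice mt-Cytb overlapped mt-Atp8 and mt-Atp8 overlapped mt-Atp6, and in semaglutide + ketone ester-treated mice mt-Atp8 overlapped mt-Atp6. By normalized count without regard to length, mt-Co1 ranked 1 and mt-Cytb 6 of all genes in vehicle-treated mice, and mt-Co2 ranked 57.

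The gene with the lowest level per kb, mt-Co2, was also the one whose windows all occurred elsewhere. Its level varied more between vehicle-treated mice than those of the other 5 genes, with a coefficient of variation of 18.3% against 5.25% to 7.93%. Among the mitochondrially encoded complex I genes, mt-Nd3 (97.9% of windows matched) and mt-Nd4l (98.7%) were likewise low, at 29784 and 73030 normalized counts per kb, with coefficients of variation of 101% and 20.3%. mt-Co3 and mt-Atp6, matched at nearly every window, had higher levels and coefficients of variation of 5.25% and 5.48%, and mt-Nd6, with no matched window and the only gene on the other strand, had the lowest level of all, 1373 per kb. How reads that fit several places were counted is not given in the sources used here, and the part of these copies in the levels was not tested.

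**Figure D1:**
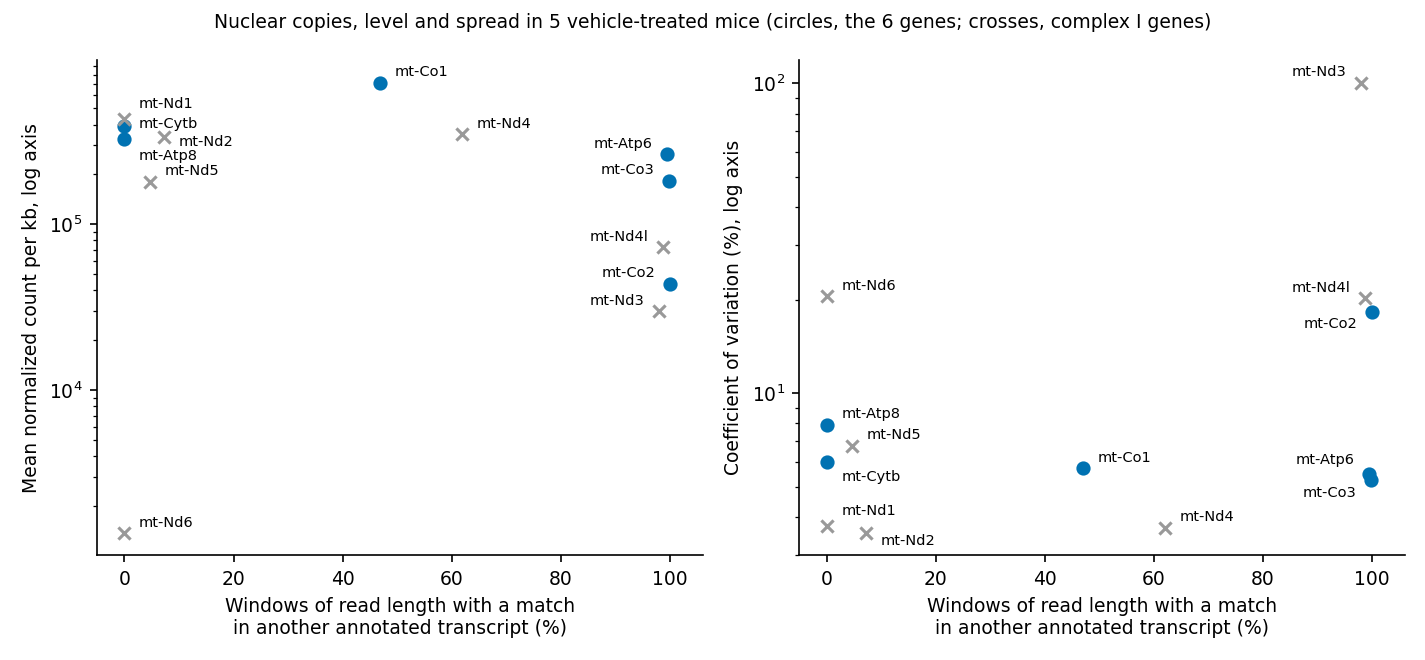
Share of 59-base windows with an exact match in another annotated transcript (x axis, %) against the mean normalized count per kb (left, log axis) and the coefficient of variation between mice (right, %, log axis) in the 5 vehicle-treated mice, for the 6 genes (circles) and the 7 mitochondrially encoded complex I genes (crosses). mt-Co2, at 100% of windows, lies at 43884 per kb and 18.3%, while mt-Cytb, at 0%, lies at 391466 per kb and 6.01%.

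All 6 genes fell under semaglutide relative to vehicle, by 0.59 to 0.81 on the log2 scale, against 13.9% of all genes tested that were lower at this threshold (1715 of 12303). Without the filter on low values, mt-Cytb, mt-Co1 and mt-Atp6 no longer passed under semaglutide (limma adjusted p = 0.12, 0.38 and 0.082), with the same differences. Under quantile normalization, mt-Co1 (-0.43, limma adjusted p = 0.072) and mt-Atp6 (-0.25, limma adjusted p = 0.16) did not pass. The median difference of the 6 genes was -0.73, beside -0.0029 over all genes. In 5 of the 6, the highest semaglutide-treated mouse was below the lowest vehicle-treated mouse, which held for 7.45% of all genes tested. With ketone ester added to semaglutide, 4 of 6 genes rose relative to semaglutide alone (mt-Cytb, mt-Co2, mt-Co3 and mt-Atp6), against 10.0% of all genes that were higher. Their median difference was 0.63, beside -0.00024 over all genes, and in all 6 the lowest mouse with ketone ester was above the highest mouse on semaglutide alone, as in 9.96% of all genes. Between semaglutide + ketone ester and vehicle, 0 of 6 passed in limma, against 0.366% of all genes in either direction, and none had an unadjusted p under 0.05. On recovered reads 0 of 6 passed in edgeR or DESeq2, where 45 and 172 of all genes did. Both contrasts against semaglutide use the same 5 semaglutide-treated mice, so their opposite directions are not separate evidence.

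In complex III, mt-Cytb encodes cytochrome b, the subunit with both heme b groups, where ubiquinol is oxidized. The vehicle-treated mice, in order of mouse number, had mt-Cytb normalized counts of 441467, 423287, 422374, 473560 and 478498. The semaglutide-treated mice had mt-Cytb at 249426, 282943, 274005, 226429 and 246829. With ketone ester, mt-Cytb stood at 395804, 423431 and 505252. The semaglutide-treated mice were all below the others, and the other groups overlapped, with mouse 22 of the ketone ester group the highest of all 13. Group means were 447837 ± 26895 (SD, n = 5) for vehicle, 255926 ± 22649 (SD, n = 5) for semaglutide and 441496 ± 56916 (SD, n = 3) for semaglutide + ketone ester. mt-Cytb fell by 0.81 on the log2 scale under semaglutide (SE 0.16, limma adjusted p = 0.0023), which is 0.57 of the vehicle level. With ketone ester it was 1.72-fold the semaglutide level (log2 difference 0.78, SE 0.18, limma adjusted p = 0.0085). The difference from vehicle was -0.026 with a 95% interval of -0.41 to 0.36 on the log2 scale.

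In complex IV, mt-Co1 encodes the subunit that holds the oxygen-reducing center, mt-Co2 the subunit that takes electrons from cytochrome c, and mt-Co3 a subunit that stabilizes them. mt-Co1 normalized counts in vehicle-treated mice were 1099173, 1044935, 1050345, 1156900 and 1187318. Semaglutide-treated mice had mt-Co1 at 593265, 723889, 666356, 558945 and 663423. In the ketone ester group mt-Co1 was 908889, 955634 and 1121892. The semaglutide-treated mice were again all below the rest, and 2 of the 3 ketone ester mice lay below the lowest vehicle-treated mouse. Mean levels were 1107730 ± 63367 (SD, n = 5) for vehicle, 641176 ± 65246 (SD, n = 5) for semaglutide and 995472 ± 111950 (SD, n = 3) for semaglutide + ketone ester. mt-Co1 fell by 0.79 under semaglutide (SE 0.20, limma adjusted p = 0.0094). The difference between semaglutide + ketone ester and semaglutide, 0.63 (SE 0.23), did not pass (limma adjusted p = 0.060), although the mice did not overlap. From vehicle the ketone ester group differed by -0.16, with a 95% interval of -0.64 to 0.33.

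mt-Co2 was the least even of the 6 genes. Its normalized counts were 36390, 23822, 24755, 31692 and 33424 in vehicle-treated mice. Under semaglutide alone, mt-Co2 was 19185, 23753, 14163, 14563 and 24675. Under semaglutide + ketone ester, mt-Co2 was 28735, 34198 and 29272. Semaglutide mouse 17 lay above vehicle mouse 2, so these groups overlapped, while the ketone ester mice were above all semaglutide-treated mice and within the vehicle range. Means were 30016 ± 5502 (SD, n = 5), 19268 ± 4938 (SD, n = 5) and 30735 ± 3011 (SD, n = 3). mt-Co2 fell by 0.66 under semaglutide (SE 0.17, limma adjusted p = 0.013). It rose by 0.71 with ketone ester relative to semaglutide (SE 0.20, limma adjusted p = 0.024), and from vehicle it differed by 0.050, with a 95% interval of -0.38 to 0.48.

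mt-Co3 had the smallest adjusted p of the 6. Vehicle-treated mice had mt-Co3 at 144926, 140373, 133545, 145964 and 154040. Semaglutide-treated mice had 76237, 86778, 81770, 70519 and 97710. With ketone ester, mt-Co3 was 130638, 132171 and 118695. The groups did not overlap in any pair, with the ketone ester mice between the other groups. Means were 143770 ± 7545 (SD, n = 5), 82603 ± 10403 (SD, n = 5) and 127168 ± 7378 (SD, n = 3). mt-Co3 fell by 0.81 under semaglutide (SE 0.12, limma adjusted p = 0.00047). It rose by 0.63 with ketone ester relative to semaglutide (SE 0.14, limma adjusted p = 0.0074), a difference that was 0.077 under quantile normalization (limma adjusted p = 0.77). Relative to vehicle it was -0.18 with ketone ester, with a 95% interval of -0.48 to 0.13.

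In complex V, mt-Atp6 encodes the membrane subunit that forms the proton path beside the rotating ring, and mt-Atp8 a small membrane subunit. mt-Atp6 normalized counts were 171501, 175062, 196185, 174641 and 180996 in vehicle-treated mice. They were 131613, 138868, 108476, 107599 and 112438 under semaglutide. They were 200149, 175969 and 158214 with ketone ester. All semaglutide-treated mice were lower than all others, and the ketone ester mice spread on both sides of the vehicle range. Means were 179677 ± 9846 (SD, n = 5), 119799 ± 14443 (SD, n = 5) and 178111 ± 21049 (SD, n = 3). mt-Atp6 fell by 0.59 under semaglutide (SE 0.13, limma adjusted p = 0.0057), the smallest difference of the 6. It rose by 0.57 with ketone ester relative to semaglutide (SE 0.15, limma adjusted p = 0.018), but under quantile normalization that difference was 0.0013 (limma adjusted p = 0.997). It differed by -0.018 from vehicle, with a 95% interval of -0.35 to 0.31.

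mt-Atp8 lies on the same messenger RNA as mt-Atp6. Its normalized counts in vehicle-treated mice were 64405, 65761, 68321, 75137 and 60962. Semaglutide-treated mice had mt-Atp8 at 39161, 47192, 42958, 35500 and 52797. The ketone ester group had 59152, 55183 and 56853. These mice lay between the other groups, overlapping neither. Means were 66917 ± 5307 (SD, n = 5), 43522 ± 6767 (SD, n = 5) and 57063 ± 1993 (SD, n = 3). mt-Atp8 fell by 0.63 under semaglutide (SE 0.12, limma adjusted p = 0.0020). Its difference between semaglutide + ketone ester and semaglutide was 0.40 (SE 0.14), which did not pass (limma adjusted p = 0.052), and from vehicle it differed by -0.23, with a 95% interval of -0.52 to 0.07. mt-Co3 and mt-Atp8 were the 2 of 6 genes in which every ketone ester mouse lay below every vehicle-treated mouse, as in 5.88% of all genes tested.

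**Figure D2:**
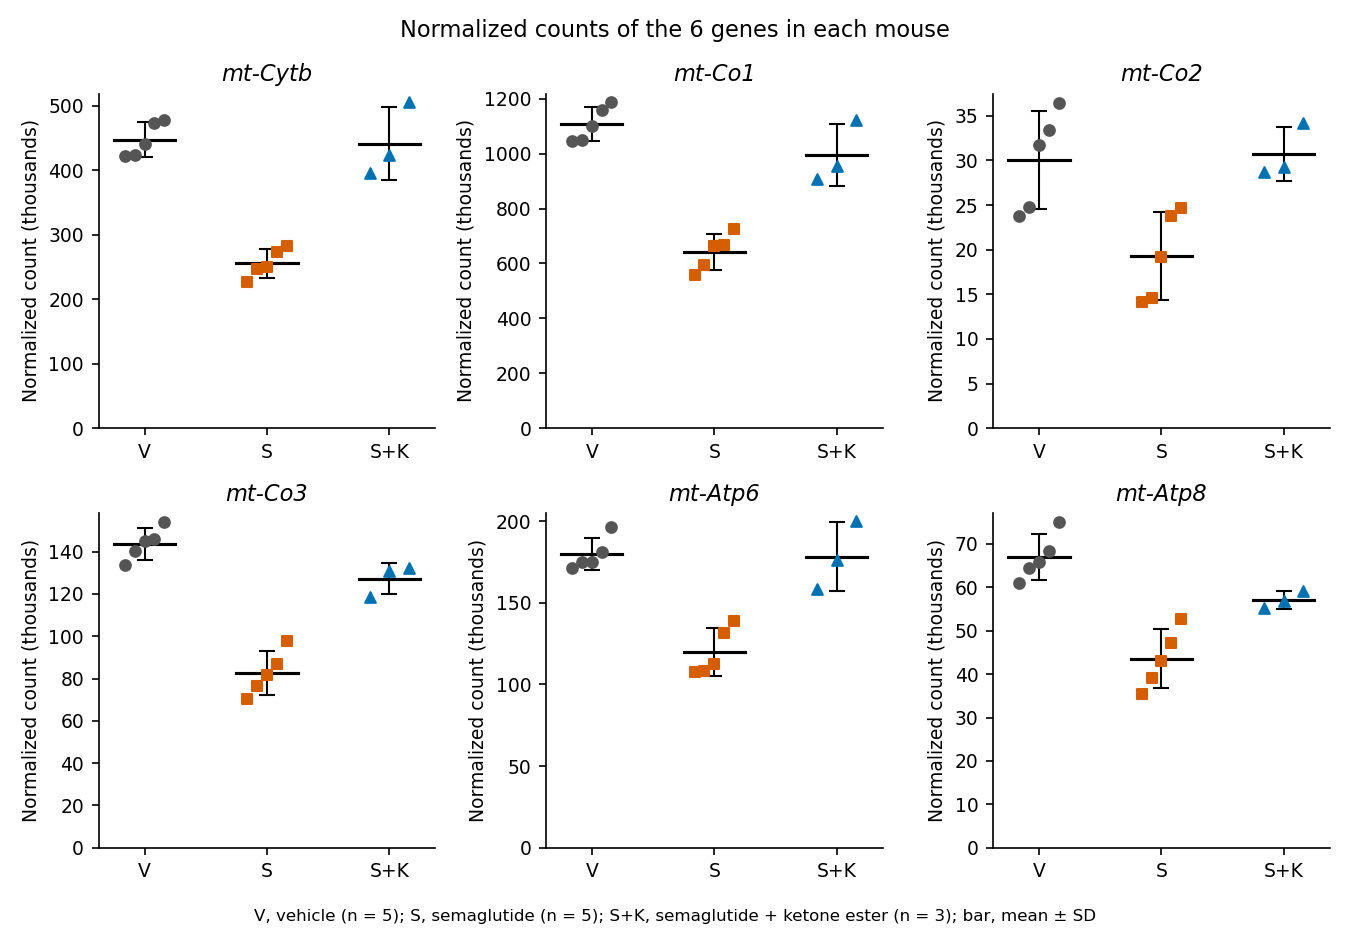
Normalized counts (y axis from 0, scaled as its label gives) of the 6 genes in each mouse, with group means and SDs. V stands for vehicle (n = 5), S for semaglutide (n = 5), and S+K for its combination with ketone ester (n = 3). The semaglutide-treated mice lie wholly below the vehicle-treated mice except in mt-Co2, where the ranges 14163 to 24675 and 23822 to 36390 overlap.

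How many of the 6 rose with ketone ester depended on the estimate of spread. Limma moves each gene's spread toward that of genes with similar levels, and few genes are as abundant as these. For mt-Co1 the SD between mice of a group was 0.13 on the log2 scale, the value for genes of its level was 0.53, and the SD used was 0.31. For mt-Co2 the corresponding values were 0.30, 0.20 and 0.27. With the same prior spread at every level, an alternative chosen after these values were seen, all 6 genes rose. They did so too in edgeR's quasi-likelihood test and in DESeq2 on the recovered reads, with adjusted p of at most 0.039 and 0.0076. With only the 8 mice of these groups in limma, none of the 6 passed (adjusted p between 0.058 and 0.21), while 5 had an unadjusted p under 0.05. Leaving out mouse 21 or mouse 22 of the ketone ester group left 2 genes past the threshold. mt-Co2 no longer passed without mouse 15, 21 or 22, mt-Atp6 without mouse 19 or 21, and mt-Cytb without mouse 22 (limma adjusted p = 0.053), whereas mt-Co1 passed without mouse 16 and mt-Atp8 without mouse 17. Without semaglutide mouse 13, 4 passed, and all 6 still fell under semaglutide. By the study's own criterion, an unadjusted p under 0.05 in one-way analysis of variance together with a ratio of 1.5 or more between the largest and smallest group means, 5 of 6 genes were altered, as were 16.1% of all genes tested. mt-Atp6 had a ratio of means of 1.4998 and missed the limit by that margin.

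These genes take a large share of all reads, and the values were also computed under other scalings of the columns. When all columns were given equal totals, the median of all genes moved to 0.17 for semaglutide against vehicle and to -0.24 for semaglutide + ketone ester against semaglutide. The genes higher and lower under semaglutide were then 3351 and 985, against 1540 and 1715 as deposited. The 6 genes still fell under semaglutide on that scale, by 0.42 to 0.64, which is 0.59 to 0.81 below the median of all genes. In the contrast of semaglutide + ketone ester with semaglutide, 2 of the 6 passed on that scale, with differences of 0.17 to 0.55, or 0.40 to 0.78 above the median. Rescaling shifts all genes of a mouse by nearly the same log2 amount. These distances from the median were therefore bound to stay as they were, and are no separate evidence.

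**Figure D3:**
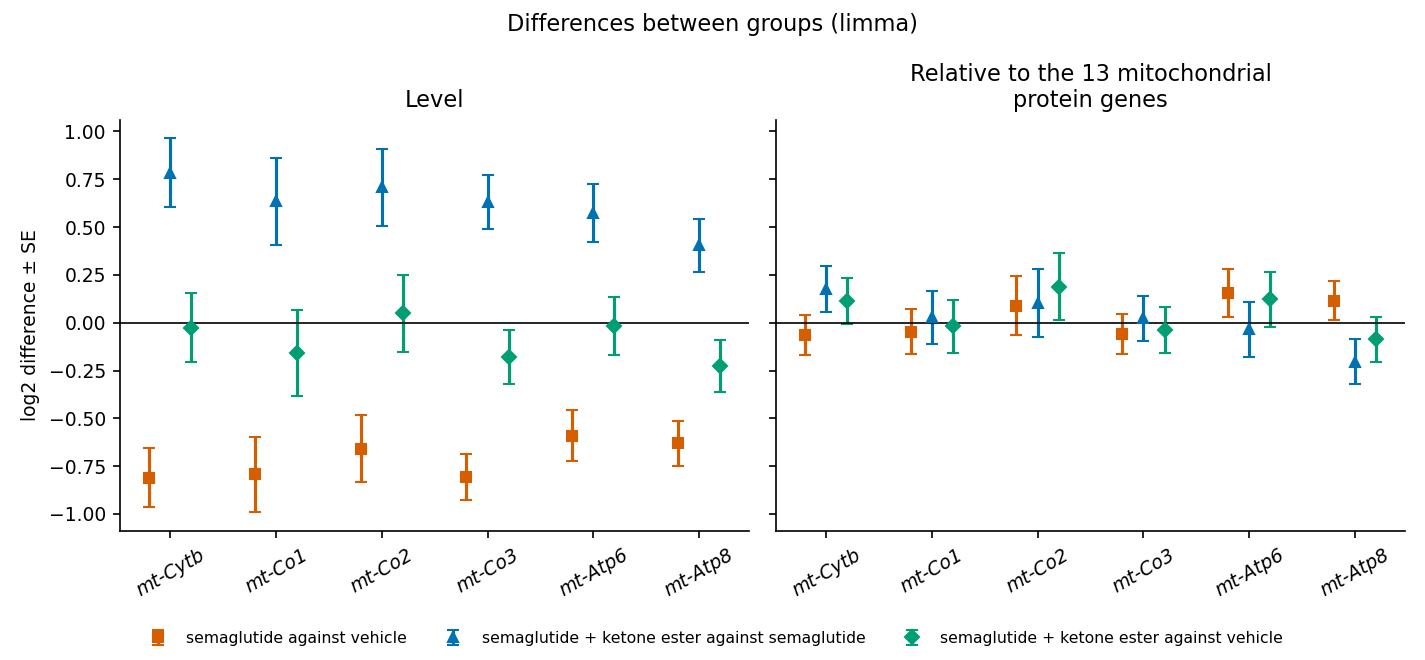
Log2 differences with their SE from limma for the 6 genes in the 3 comparisons, as levels (left) and relative to the summed counts of the 13 mitochondrial protein genes of the same mouse (right). On the left the semaglutide values lie between -0.81 and -0.59, while on the right all values lie between -0.20 and 0.19.

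Whether any of the 6 moved apart from the mitochondrial messenger RNAs as a whole was tested by expressing every gene relative to the summed counts of the 13 mitochondrial protein genes of the same mouse. On that scale 0 of 6 genes passed in limma in any of the 3 comparisons, and none had an unadjusted p under 0.05. Limma raised the SD of every one of these genes except mt-Co2. For mt-Cytb the own SD was 0.055, the value for genes of its level 0.28 and the SD used 0.17. For mt-Co1 these were 0.038, 0.32 and 0.19. The lack of calls and the intervals below thus rest largely on the spread of other genes, and do not show that the 6 moved together. In semaglutide against vehicle the relative differences ran from -0.063 (mt-Cytb) to 0.16 (mt-Atp6, 95% interval -0.11 to 0.42), where 78.5% of all genes passed, since the sum itself differed between groups. Between semaglutide + ketone ester and semaglutide they ran from -0.20 (mt-Atp8, 95% interval -0.45 to 0.043) to 0.18 (mt-Cytb, 95% interval -0.082 to 0.43), and 64.8% of all genes passed. For semaglutide + ketone ester against vehicle the range was -0.088 (mt-Atp8) to 0.19 (mt-Co2, 95% interval -0.19 to 0.57), and 0.358% of all genes passed. The intervals leave room for relative differences of up to 0.57 for mt-Co2 and up to 0.43 for mt-Cytb. The 6 genes are themselves part of the sum, which draws these values toward 0.

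Ratios between the messenger RNAs do not depend on the column factors. Among the 15 pairs of the 6 genes, the semaglutide-treated and vehicle-treated mice overlapped in every ratio. The ratio of mt-Co1 to mt-Cytb was even in vehicle-treated mice, 2.47 ± 0.019 (SD, n = 5), with a range of 2.44 to 2.49. It was 2.51 ± 0.12 (SD, n = 5), between 2.38 and 2.69, in semaglutide-treated mice, and 2.26 ± 0.038 (SD, n = 3), between 2.22 and 2.30, with ketone ester. The 3 ketone ester mice thus lay below all 10 others, the single pair of 15 in which that group overlapped neither of the others. The level of mt-Cytb relative to mt-Atp8 was 6.73 ± 0.68 (SD, n = 5) in vehicle-treated, 5.96 ± 0.74 (SD, n = 5) in semaglutide-treated and 7.75 ± 1.10 (SD, n = 3) in ketone ester mice, and the last 2 of these groups did not overlap. The ratio of mt-Co3 to mt-Atp8 also separated those groups, 1.91 ± 0.063 (SD, n = 5) against 2.23 ± 0.15 (SD, n = 3). For the pair on a shared messenger RNA, mt-Atp6 to mt-Atp8, the ratio was 2.70 ± 0.25 (SD, n = 5), 2.80 ± 0.48 (SD, n = 5) and 3.12 ± 0.31 (SD, n = 3), and all groups overlapped. These ratios were not tested, and they share genes and mice. How often ratios of other genes separate the groups was not computed. For single genes, the ketone ester mice lay above all semaglutide-treated mice in 9.96% and below all vehicle-treated mice in 5.88%.

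**Figure D4:**
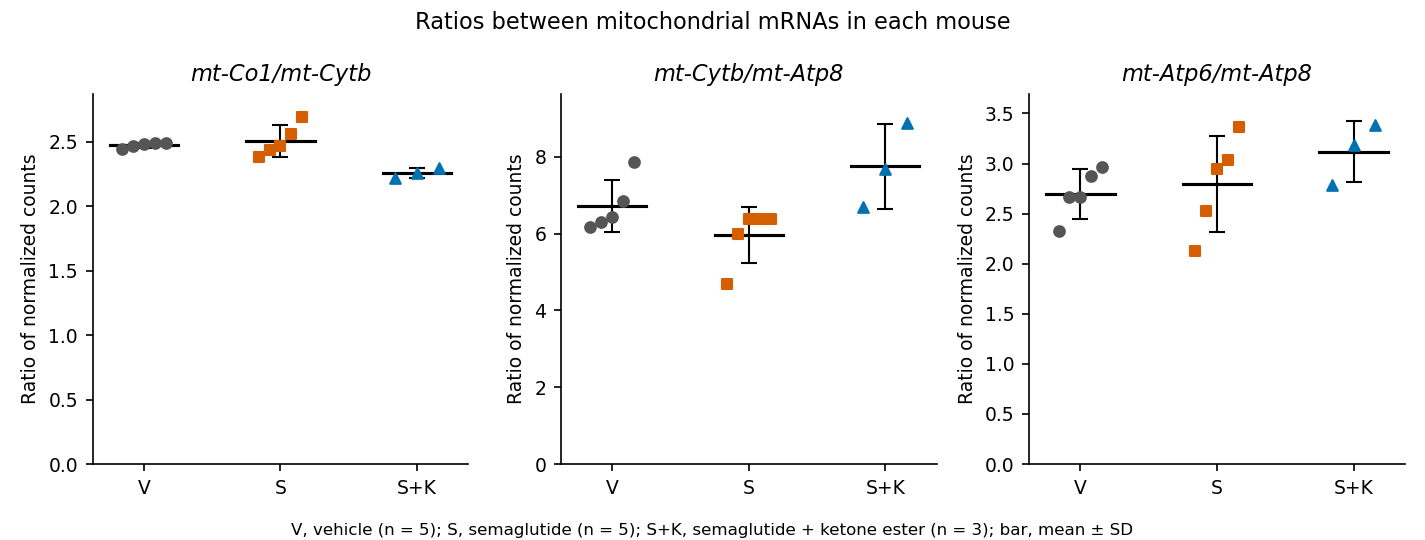
Ratios of normalized counts between mitochondrial messenger RNAs in each mouse (y axis from 0), with group means and SDs. V stands for vehicle, S for semaglutide and S+K for its combination with ketone ester. The mt-Co1 to mt-Cytb ratio of the 3 ketone ester mice, 2.22 to 2.30, lies below those of the 10 other mice, while the mt-Atp6 to mt-Atp8 ratios of all groups overlap.

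Of the mitochondrially encoded complex I genes, 6 lie on the same strand as the 6 genes above, and mt-Nd6 lies on the other. Of 7, 6 fell under semaglutide, from mt-Nd4l at -0.98 (SE 0.22, limma adjusted p = 0.0055) to mt-Nd1 at -0.62 (SE 0.15), and mt-Nd3 did not pass at 0.27 (SE 0.57). With ketone ester, 2 of 7 rose relative to semaglutide and 0 of 7 passed against vehicle. The matching shares of all genes were 13.9%, 10.0% and 0.366%.

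The nuclear genes for subunits of the same complexes were also lower under semaglutide. Of 42 nuclear subunit genes of complexes III to V, 36 fell under semaglutide with a median of -0.46, against 13.9% of all genes tested. With ketone ester relative to semaglutide, 37 rose with a median of 0.62, against 10.0% of all genes. In semaglutide + ketone ester against vehicle, 0 of 42 passed in limma, where 0.366% of all genes did. The median was 0.13, beside a median of -0.09 for the 6 mitochondrial genes. For complex III, 9 of 9 fell under semaglutide, from Uqcrc1, a core subunit, at -0.81 (SE 0.11) to Uqcrb at -0.32 (SE 0.10). For complex IV, 11 of 15 fell, with Cox7a1, the subunit isoform of heart and skeletal muscle, lowest at -1.64 (SE 0.12, limma adjusted p = 6.3e-06) and Cox8a, which did not pass, highest at 0.17 (SE 0.15). For complex V, 16 of 18 fell, and the range ran from Atp5g3, a gene for the rotating ring, at -0.73 (SE 0.10) to Atp5g2, another gene for that ring, which did not pass at 0.23 (SE 0.28). When all columns were given equal totals, 9 of 18 complex V genes and 25 of all 42 nuclear genes were lower under semaglutide, and 28 of the 42 were higher and 1 was lower with ketone ester than under semaglutide alone.

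Set side by side in each mouse, the mean of the 6 genes was further below vehicle than that of the 42 nuclear subunit genes in all 5 semaglutide-treated mice. The mean log2 difference of the 6 genes from the vehicle mean was -0.75, -0.53, -0.78, -0.94 and -0.57 in semaglutide mice 13 to 17. In the same mice that of the 42 nuclear genes was -0.33, -0.33, -0.46, -0.66 and -0.55. The gap between them averaged -0.25 ± 0.15 (SD, n = 5), from -0.42 in mouse 13 to -0.024 in mouse 17, and vehicle-treated mice ranged from -0.033 to 0.049. In the ketone ester group the 6 genes stood at -0.11, -0.08 and -0.08, closer together than the nuclear genes at -0.03, 0.07 and 0.34. Their gap was -0.22 ± 0.18 (SD, n = 3) and ranged from -0.42 to -0.078, below every vehicle-treated mouse. The gaps are given as a description with no test, and single lists did not all follow them. In mouse 17 the nuclear complex III genes averaged -0.65, below the 6 genes. In mouse 15 the mitochondrially encoded complex I genes, outside the 6, averaged -0.29, above the 42 nuclear genes. In the other semaglutide-treated mice neither occurred.

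**Figure D5:**
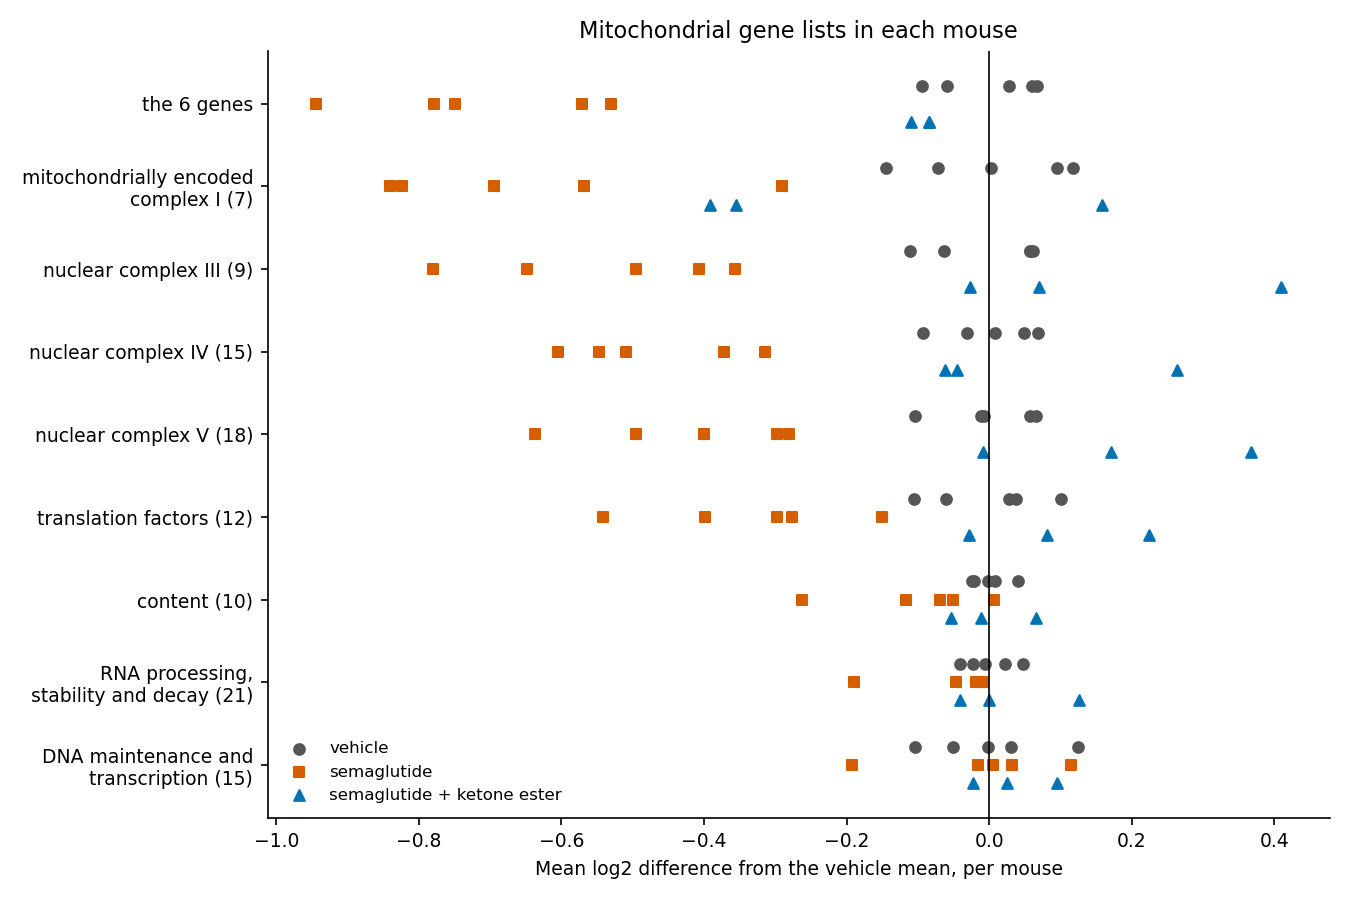
Mean log2 difference from the vehicle mean (x axis) of each gene list in each of the 13 mice, with the number of genes in parentheses. The 6 genes lie between -0.94 and -0.53 in semaglutide-treated mice and between -0.11 and -0.08 in the ketone ester mice, while the lists for DNA maintenance and for RNA processing lie near 0 in most mice.

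Genes that copy, transcribe and process the mitochondrial genome were mostly not past the threshold, which also held for all genes tested. It is thus no trait of these lists. Of all 12303 genes, 1715 (13.9%) fell and 1540 rose under semaglutide. With ketone ester relative to semaglutide, 1234 (10.0%) rose and 1312 fell. Of 15 genes tested for mitochondrial DNA maintenance and transcription, 2 fell and 0 rose under semaglutide (median 0.09). Mterf2, a member of the mitochondrial termination factor family, was lowest at -1.11 (SE 0.19, limma adjusted p = 0.00095), and Mterf1a was highest at 0.63 (SE 0.37) without passing. The other gene that fell was Tfam, named here after its value was seen, which packages mitochondrial DNA and starts its transcription, at -0.27 (SE 0.08, limma adjusted p = 0.023). Both rose with ketone ester relative to semaglutide. These counts turned on the scaling, as did those of all genes. With equal totals 1 of the 15 was lower and 6 were higher under semaglutide, beside 985 and 3351 of all 12303 genes. With equal totals of nuclear genes 1 was lower and 2 were higher, beside 1355 and 1986 of all genes. With ketone ester relative to semaglutide, 6 were lower and 1 was higher with equal totals, beside 3715 and 637 of all genes. With equal totals of nuclear genes 4 were lower and 1 was higher, beside 2918 and 757 of all genes. Among 21 genes for mitochondrial RNA processing, stability and decay, 1 fell and 3 rose under semaglutide (median -0.12), with Ptcd3, a protein of the mitochondrial small ribosomal subunit, lowest at -0.41 (SE 0.10) and Ptcd1, which acts on mitochondrial leucine transfer RNAs, highest at 0.48 (SE 0.16). With ketone ester relative to semaglutide, 2 of these 21 rose and 2 fell. With equal totals, 1 was lower and 5 were higher under semaglutide, and 4 were lower and 1 was higher with ketone ester. The counts of all genes with equal totals are those given above.

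Of 12 mitochondrial translation factors, 7 fell and 0 rose under semaglutide (median -0.33), and 6 rose with ketone ester relative to semaglutide. With equal totals, 2 were lower under semaglutide, and 3 were higher and 1 was lower with ketone ester. Taco1, which activates the translation of mt-Co1 messenger RNA, was the lowest at -1.02 (SE 0.20, limma adjusted p = 0.0026) and 1.19 higher with ketone ester (SE 0.23, limma adjusted p = 0.0033). Oxa1l, which inserts mitochondrially made proteins into the inner membrane, was the highest at 0.11 (SE 0.09) and did not pass. Genes often used as markers of mitochondrial content moved in both directions. Of 10, 4 fell and 2 rose under semaglutide (median -0.15), with Vdac1, the outer membrane channel, lowest at -0.68 (SE 0.08) and Phb2, a prohibitin of the inner membrane, highest at 0.57 (SE 0.09). With equal totals, 2 were lower and 3 higher under semaglutide, beside 985 and 3351 of all genes. None of the 15, 21, 12 or 10 genes passed in limma between semaglutide + ketone ester and vehicle, where 0.366% of all genes did.

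The 5 nuclear genes with profiles over the 13 mice most like the mean of the 6 genes were S100a1, a calcium-binding protein of muscle, Vdac1, Stau2, an RNA-binding protein, Cox7c, a complex IV subunit, and Ndufa13, a complex I subunit. Likeness was the root mean square difference of centered log2 values, which was 0.086 to 0.11 for these genes, 0.079 to 0.19 for the 6 genes themselves and 0.44 for the median of all genes. S100a1 normalized counts were 1257 ± 86.8 (SD, n = 5) for vehicle, 779 ± 53.6 (SD, n = 5) for semaglutide and 1226 ± 81.7 (SD, n = 3) for semaglutide + ketone ester. These genes were chosen for their likeness, and their values are a description.

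Some markers of other cell types and of fibers passed in some of these comparisons. Of all genes tested, 13.9% were lower under semaglutide and 10.0% were higher with ketone ester than under semaglutide alone. Between semaglutide and vehicle, 0 of 7 fiber markers, 1 of 6 slow fiber markers, 2 of 3 fibroblast markers and 1 of 2 tendon markers were lower, and none of the 4 adipocyte, 5 red cell, 5 macrophage and leukocyte, 3 endothelial or 2 Schwann cell markers passed in limma. Between semaglutide + ketone ester and semaglutide, 3 of 7 fiber markers, 5 of 5 red cell markers, 2 of 3 endothelial markers, 1 of 3 fibroblast markers and 1 of 2 tendon markers were higher and the other tendon marker was lower. Pecam1, the other endothelial marker, had a lower mean with ketone ester (1069) than under semaglutide alone (1258). Myh1 of the fiber markers also had a lower mean, and no slow fiber marker passed. Between semaglutide + ketone ester and vehicle no marker passed, where 0.366% of all genes did. Summed red cell markers ranged from 1356 to 2291 in vehicle-treated, 50.5 to 3148 in semaglutide-treated and 2849 to 5558 in ketone ester mice, with Hbb-bt and Alas2 at 0 in some mice. Summed slow fiber markers ranged from 6819 to 31349, 6355 to 18568 and 10344 to 20392, and adipocyte markers from 459 to 1962, 125 to 7738 and 792 to 1732, with Lep at 0 in some mice. The lowest red cell and the highest adipocyte sum were both in semaglutide mouse 16. Red cell sums were also low in semaglutide mice 14 and 17, at 53.0 and 213, while mice 13 and 15 had 3148 and 1505. All 6 genes still fell under semaglutide without mouse 16, but leaving out that mouse alone does not address the other low sums. Fibroblast markers summed to 4041 to 9595, 4349 to 5619 and 5528 to 8821, endothelial markers to 2834 to 3401, 2739 to 3184 and 3003 to 3551, and tendon markers to 92.7 to 225.9, 59.7 to 205.03 and 138 to 168. Macrophage and leukocyte markers summed to 384 to 1177, 510 to 1729 and 544 to 1077, and Schwann cell markers to 363 to 984, 252 to 1017 and 406 to 591. The part of these markers in the differences of the 6 genes was not tested.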

How the data were processed

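RNA from the gastrocnemius of 13 mice was sequenced by the authors with a stranded mRNA kit and paired reads of 59 bases, aligned to mm10 with DRAGEN, and deposited as normalized counts per gene, a signal in which each column is reads divided by a factor per mouse. The submitters' processing notes also name DESeq2. The counting program and its treatment of reads with several placements are not given in the sources used here. All 13 columns were matched to labelled mice.

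Every value was a whole multiple of a step per mouse (100% within 0.01 reads), so whole reads were recovered. The deposited factors differed by at most 1.74% from DESeq2 size factors. Libraries held 15319471 to 23498162 reads. Counting error is small beside the spread between mice at these levels.

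log2(normalized count + 1) was tested with limma 3.58.1 (R 4.3.3) for the 12303 of 21868 genes with a mean of at least 10, with all 3 groups in 1 model and Benjamini-Hochberg adjustment. Differences and folds refer to that log2 scale. The fit was also run on simulated counts with the same spread setting for every gene and changes in the semaglutide group only. That run looked at semaglutide against vehicle, so it did not cover the comparisons with ketone ester. It also did not cover the prior spread of very abundant genes. edgeR 4.0.16 (3311 genes between semaglutide and vehicle, against 3255 in limma) and DESeq2 1.42.0 were run on the recovered reads. Other alternatives were a pseudocount of 10, no filter, other scalings, sample weights, only the mice of the 2 groups, and leaving out each mouse. Named genes are all 6 members, the genes of each list with the lowest and highest difference between semaglutide and vehicle, and the 5 nuclear genes of most similar profile. Members and lists were chosen with earlier results of these data known. Positions and sequences are from GENCODE M21 (GRCm38), which is the build of the alignment. Limma p-values set the difference between groups against a spread between mice that is drawn in part from other genes.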

Additional observations from a re-analysis of the deposited data

Results flagged for a closer look

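The 6 genes' normalized counts and their shares of the reads of the 13 mitochondrial protein genes were searched for a mouse far from the rest of its group, in the groups of 5 mice. Of 24 such sets of values, 2 held one, and chance alone gives about 1 in 20. Both were semaglutide mouse 17. In it, mt-Atp8 took 2.40% of the mitochondrial protein reads, against 1.91% to 1.97% in the 4 other semaglutide-treated mice. Also in mouse 17, mt-Co3 took 4.44%, against 3.62% to 3.84% in the others. The same mouse had the smallest gap between the 6 mitochondrial genes and the 42 nuclear subunit genes, -0.024 on the log2 scale. Without mouse 17, mt-Atp8 was higher with ketone ester than under semaglutide by 0.48 (limma adjusted p = 0.032).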

How the results depend on the processing

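No difference of the 6 genes in the comparisons with semaglutide turned sign under an alternative or an omitted mouse, but under quantile normalization the difference between semaglutide + ketone ester and semaglutide shrank to 0.0013 for mt-Atp6, 0.077 for mt-Co3 and 0.10 for mt-Atp8. Between semaglutide and vehicle 6 genes passed in every setting except quantile normalization (4) and no filter on low values (3, with adjusted p up to 0.38). The analysis of variance criterion, which compares all 3 groups at once and so is no test of this contrast, took in 5. Leaving out each mouse gave 6 throughout. Between semaglutide + ketone ester and semaglutide 4 passed, against 1 with no filter, 2 with columns rescaled to equal totals, 2 with quantile normalization, 0 with only the mice of the 2 groups, 3 with equal totals of nuclear genes, 5 with sample weights and 6 in edgeR, in DESeq2 and with a prior spread that ignores the level. Leaving out each mouse gave between 2 and 5. The filter changes no value of these genes, only the number of genes tested and the prior spread. Between semaglutide + ketone ester and vehicle 0 passed throughout, and signs of values near 0 turned. mt-Co2 went to -0.013 with equal totals and -0.056 with equal totals of nuclear genes, mt-Cytb to 0.0075 with quantile normalization and mt-Atp6 to 0.0019 in edgeR, and with each mouse left out they ranged from -0.030 to 0.12, from -0.13 to 0.049 and from -0.11 to 0.064. Relative to the mitochondrial protein genes 0 passed throughout. With the 6 genes alone as the reference, mt-Co1 and mt-Co3 went to -0.022 and -0.027 in semaglutide + ketone ester against semaglutide. With each mouse left out in that comparison, mt-Co1 ranged from -0.0054 to 0.052, mt-Co2 from -0.016 to 0.19, mt-Co3 from -0.035 to 0.13 and mt-Atp6 from -0.16 to 0.10, and against vehicle mt-Co1 ranged from -0.052 to 0.0061, mt-Co3 from -0.10 to 0.068 and mt-Atp6 from -0.0035 to 0.26. A reference without the 5 genes whose windows nearly all have nuclear copies, added after the copies were found, turned no sign. The cause of the turns was not tested. No paired analysis was possible because the groups share no mouse numbers. All genes passing with sample weights numbered 4986, 4436 and 318 in the 3 comparisons, against 3255, 2546 and 45. With 3 ketone ester mice, the 95% intervals against vehicle reach down to -0.64 (mt-Co1) and up to 0.48 (mt-Co2). Their width rests on the number of mice and also on the spread of other genes. For mt-Co1 the own SD was 0.13 and the SD used 0.31, while for mt-Co2 these were 0.30 and 0.27. Differences within these bounds cannot be told from 0 in this fit.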
